A study of Mus musculus with 31 samples.

Results

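The 9 genes described here, of 22609 gene symbols counted, encode the dystrophin-glycoprotein complex and the sarcolemma proteins that work beside it in the masseter muscle (MM): the dystrophins Dmd and Utrn, dystroglycan Dag1, the sarcoglycans Sgca, Sgcb and Sgcd, the laminin chain Lama2, and the membrane proteins Dysf and Cav3. They were picked by symbol for their known roles, with earlier results of these data known. Bulk RNA-seq was performed on MM of 31 male C57BL/6J mice, adults of 2 to 4 months, with 1 library per mouse. The study modelled muscle pain of the jaw by inflammation, with complete Freund's adjuvant (CFA), or by tissue damage, with collagenase type 2 (Col), an enzyme that degrades extracellular matrix, each injected into the left MM. In the CFA experiment, 3 mice were collected 1d and 3 mice 5d post-CFA, beside 3 vehicle-treated mice. In the Col experiment, 4 mice each of the 0.2U groups labelled 1C and RPC, 4 mice 2d, 3 mice 6d and 4 mice 12d post-Col (10U) stood beside 3 vehicle-treated mice. The days of the 10U groups are those of the labels, and the paper's text gives 1d and 14d for the groups labelled 2d and 12d. Which of the 0.2U groups was collected 1d and which 5d post-Col is not in the labels, and neither is the collection day of vehicle-treated mice. All mice were wild-type, so these models rest on a local injection and carry no altered allele. A whole muscle was used, and in bulk tissue fewer myofibres and less RNA of a gene per myofibre cannot be told apart.

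Dystrophin, the product of the largest known gene, binds cortical actin inside the myofibre and the transmembrane protein dystroglycan at the sarcolemma. Dystroglycan, glycosylated by a series of dedicated enzymes, binds laminin-211, whose alpha chain is the product of Lama2, and the sarcoglycans hold this complex in the membrane. Utrophin is the autosomal relative of dystrophin, found at the neuromuscular junction and along regenerating fibres, while dysferlin acts in calcium-dependent resealing of torn membrane and caveolin-3 forms muscle caveolae. Loss of any of dystrophin, a sarcoglycan, laminin alpha 2, dysferlin or caveolin-3 causes muscular dystrophy or related myopathy.

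Promoters are shown for the member that passed the test against vehicle (Sgca), the member whose changes were nearest to it (Cav3) and the member farthest from it (Dmd). The windows run from 250 bases before to 50 bases after the gene start, from RefSeq on build GRCm38.p6, and the first of 2 Dmd entries is shown. Capitals mark E-boxes, CANNTG, the core bound by myogenic basic helix-loop-helix factors, which reads as the same motif on both strands.
Sgca promoter, chr11:94976278-94976577, minus strand: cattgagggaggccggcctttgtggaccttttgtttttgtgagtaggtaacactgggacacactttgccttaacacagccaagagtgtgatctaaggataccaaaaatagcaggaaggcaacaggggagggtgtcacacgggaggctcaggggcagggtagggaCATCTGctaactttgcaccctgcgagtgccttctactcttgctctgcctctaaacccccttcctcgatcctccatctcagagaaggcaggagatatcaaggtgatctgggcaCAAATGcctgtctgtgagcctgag
Cav3 promoter, chr6:112459255-112459554, plus strand: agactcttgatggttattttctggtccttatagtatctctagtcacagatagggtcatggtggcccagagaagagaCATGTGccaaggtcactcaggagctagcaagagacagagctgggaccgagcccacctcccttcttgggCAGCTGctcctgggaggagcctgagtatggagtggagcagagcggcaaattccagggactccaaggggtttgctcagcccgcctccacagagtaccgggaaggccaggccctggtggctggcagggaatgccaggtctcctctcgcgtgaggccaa
Dmd promoter, chrX:82948620-82948919, plus strand: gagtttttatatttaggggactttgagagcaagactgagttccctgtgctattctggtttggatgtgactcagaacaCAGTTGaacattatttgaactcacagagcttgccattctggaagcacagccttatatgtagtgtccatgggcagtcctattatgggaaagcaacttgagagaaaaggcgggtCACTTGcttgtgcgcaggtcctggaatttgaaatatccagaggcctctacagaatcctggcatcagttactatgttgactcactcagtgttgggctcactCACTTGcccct
The Sgca window held 2 E-boxes, the Cav3 window 2 and the Dmd window 3. E-boxes stood in 72.3% of 32851 promoters of this length, so their presence in these windows is common. The CAGCTG form, counted within CANNTG, stood in the Cav3 window and in 16.3% of all promoters. The Dmd window also held a CArG box, present in 1.63% of promoters, and a MEF2 site, present in 3.19%; both were searched on either strand, and neither overlapped an E-box. All 9 members had entries, 12 in all. These matches describe letters in the windows, and binding was not measured.

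Each library held between 14843778 and 29076671 reads counted on genes, with a median of 20834472. The labelled tissue was borne out by its markers: 10 myofibre genes (such as Acta1, Ckm and Myh4) summed to between 31780 and 234300 CPM, in all 31 libraries. CPM are counts scaled to a common library size with the TMM method of edgeR. Several libraries also held salivary gland RNA, with a summed CPM of 9 markers from 0.856 to 177100. This sum was 85240 or more in all mice 5d post-CFA, 25.2, 111800 and 25980 in the Col experiment's vehicle-treated mice, and 2.61 or less 6d post-Col (10U). The myofibre sum was 171100, 195600 and 121600 CPM in vehicle-treated mice of the Col experiment, 31780 to 73980 CPM 2d, 36890 to 69930 CPM 6d and 57490 to 149500 CPM 12d post-Col (10U). Mouse 4 at 2d had the highest myofibre sum of its group and mouse 4 at 12d the lowest. Mouse 4 at 12d also had the highest sum of 8 fibroblast markers of any library, 19810 CPM. The share of reads called ambiguous by the counting was 0.559% to 0.703% in the 11 libraries of 10U mice and 0.125% to 0.26% in the other 11 libraries of the Col experiment, so that a difference in library making or counting cannot be told apart from the 10U treatment. Exons of the members do not overlap exons of other genes in GENCODE vM1, the annotation used here for the authors' build mm9, other than 248 bases of Dysf covered by Gm15475 on the opposite strand.

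**Figure D1:**
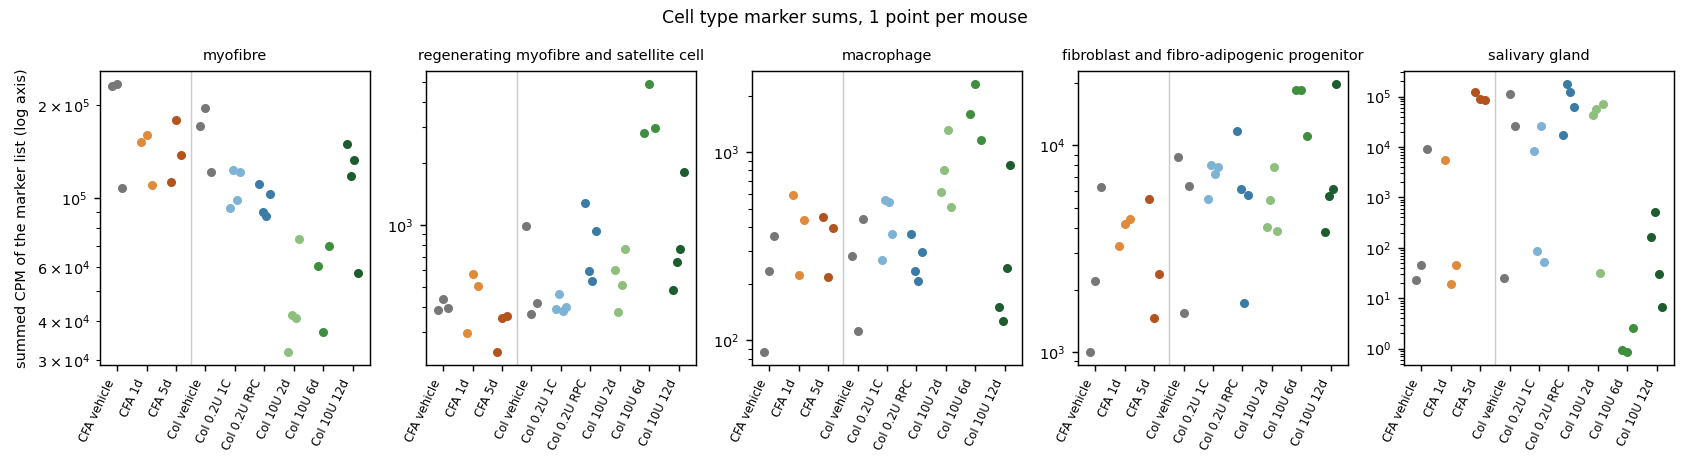
Summed CPM of 5 cell type marker lists in each mouse, on log axes, with groups along the horizontal axis and 1 point per mouse. Myofibre sums are lowest 2d and 6d post-Col (10U), the regenerating myofibre and macrophage sums are highest at 6d, and salivary gland sums range from 0.856 to 177100 CPM.

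Per kilobase of transcript, Sgca, Cav3 and Dag1 had the highest levels of the members in the 6 vehicle-treated mice. Sgca was at 137 ± 39.0 RPKM (SD, n = 6), Cav3 at 121 ± 43.4 and Dag1 at 116 ± 19.4, and the mice overlapped between these neighbours. Sgcb, at 41.1 ± 5.23 RPKM, and Dysf, at 17.6 ± 4.78 RPKM, each stood apart from the next gene above and below. Utrn (8.61 ± 1.49), Sgcd (7.56 ± 1.66), Dmd (6.66 ± 1.86) and Lama2 (5.79 ± 1.84 RPKM) overlapped with their neighbours. RPKM were computed with the longest transcript, which for Dmd (14910 bases, chrX:80194209-82451480 on mm9, plus strand) is 1 of 16 annotated transcripts, so levels per length of this gene depend on the isoform, and counts per gene do not separate isoforms. Between the vehicle groups of the Col and CFA experiments, 0 members passed edgeR's quasi-likelihood test and 0 had an unadjusted p under 0.05, also with DESeq2 0, while 0.0426% of all tested genes were called higher and 0% lower.

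After treatment, the members that passed edgeR's test against vehicle were in the 10U groups. All 9 members had enough counts to be tested in each of 7 comparisons with vehicle. With edgeR's quasi-likelihood test and Benjamini-Hochberg adjustment over all tested genes, Sgca was down-regulated 2d and 6d post-Col (10U), and no member was called in the other 5 comparisons. At 2d, 1 of 9 members was called lower and 0 higher, beside 1.08% and 1.14% of all tested genes. At 6d, 1 of 9 was called lower and 0 higher, beside 13.3% lower and 14% higher among all tested genes, so the share of members called was near the share of all genes. At 12d, 0 members were called, beside 0.762% higher and 0.466% lower of all genes; 1 member, Dmd, had an unadjusted p under 0.05, as did 17.4% of all genes, and was called by DESeq2, which called 3.66% of all genes higher and 2.7% lower. Post-CFA, 0 members were called at 1d (0% of all genes higher and 0% lower) and 0 at 5d (1.06% higher and 0.0428% lower). In the 0.2U groups 1C and RPC, 0 members were called, as were 0% of all genes in either direction. At an unadjusted p under 0.05 there were 1 member at 1d and 0 members at 5d post-CFA, 1 in the 1C group and 3 in the RPC group, and DESeq2 called 0 members in these 4 comparisons. Of all tested genes, an unadjusted p under 0.05 was reached by 4.22% at 1d post-CFA, 14% at 5d, 12.6% in 1C, 13.5% in RPC and 33.3% 2d post-Col (10U), where 5 members reached it. DESeq2 called 0.308% of all genes higher and 0.0717% lower at 1d post-CFA, 5.06% and 1.3% at 5d, 2.48% and 1.1% in 1C, and 1.18% and 1.57% in RPC. At 2d post-Col (10U), DESeq2 called 1 member higher and 4 lower, beside 11.7% and 11.4% of all genes. Counts were simulated with these group and library sizes and the spread of vehicle-treated mice. For 12d post-Col (10U), 2-fold changes were recovered in 9 of 100 genes and 4-fold changes in 77 of 100. Of 94 calls 8 were wrong, and for 1d post-CFA 15 of 98 calls were wrong.

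**Figure D2:**
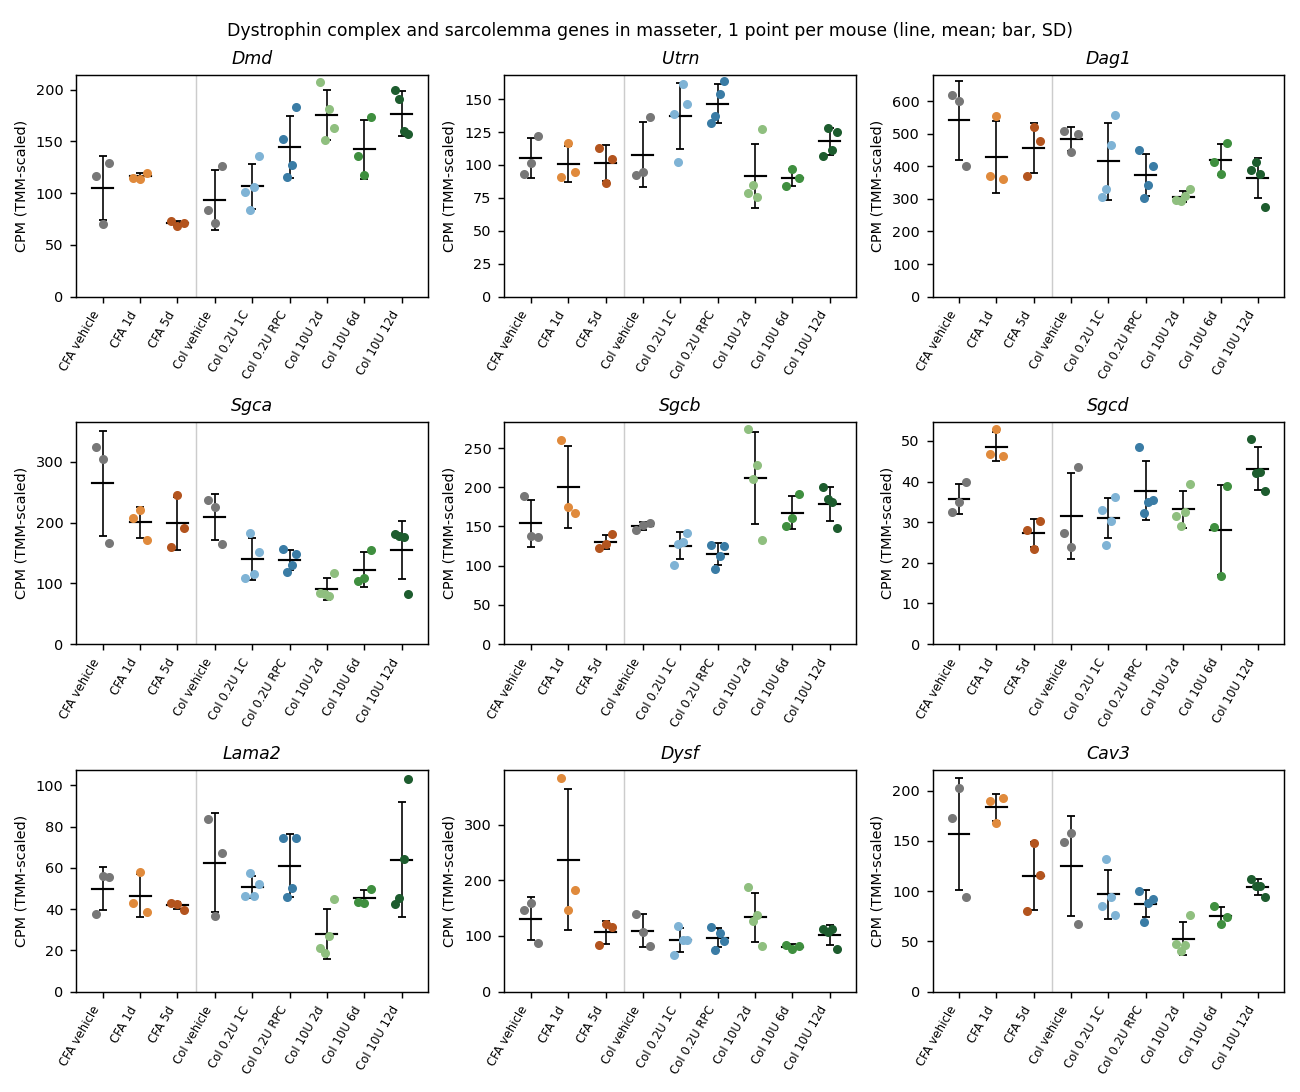
TMM-scaled CPM of the 9 members in each mouse, with groups along the horizontal axis, the mean as a line and the SD as a bar; each vertical axis starts at 0. Sgca and Cav3 are lowest 2d post-Col (10U), and Dmd in this group, at 152 CPM or more, lies above the 3 vehicle-treated mice, which reach 126 CPM.

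Of the sarcoglycan members, only alpha-sarcoglycan (Sgca, chr11:94824105-94837641 on mm9, minus strand) was called. Sgca was at 237, 225 and 165 CPM in vehicle-treated mice of the Col experiment and at 84.0, 82.8, 79.0 and 118 CPM 2d post-Col (10U). Every treated mouse was below every vehicle-treated mouse, and mouse 4 was the highest of the treated; groups lay apart downward in 10.8% of all genes at 2d and 21.2% at 6d. Sgca was down-regulated at 2d at a log2 fold change of -1.24 ± 0.22 (SE; edgeR, adjusted p = 0.0456). It was the only member that also passed the thresholds of the study, a fold change over 2 and RPKM over 1, which 0.821% of tested genes passed in this direction. At 6d it was at 105, 108 and 155 CPM, again below all 3 vehicle-treated mice, with a log2 fold change of -0.79 ± 0.23 and an adjusted p of 0.0415 (edgeR). At 12d, 3 mice were at 181, 178 and 176 CPM, within the vehicle range, and mouse 4 was at 82.5 CPM. The log2 fold change at 12d was -0.40 ± 0.28 (edgeR, adjusted p = 0.49). The calls of edgeR on Sgca were close to the threshold. DESeq2, which called more of all genes at 2d, gave Sgca an adjusted p of 1.28e-05 at 2d and 0.00655 at 6d. At 2d edgeR's adjusted p was 0.0446 without vehicle mouse 3 and 0.00161 without treated mouse 4. It passed 0.05, at 0.118 to 0.191, without any 1 of the other 5 mice. At 6d the call held without vehicle mouse 3 (0.0211) or treated mouse 3 (0.0397) and was lost without any 1 of the other 4 mice, at 0.0811 to 0.152. The log2 fold change remained between -1.40 and -1.13 at 2d and between -0.99 and -0.67 at 6d over these fits. TMM scaling moved the median of all genes at 6d by 0.53 on the log2 scale relative to total counts, and with total counts alone Sgca at 6d was at -0.25 (adjusted p = 0.434). With salivary and bone covariates, added after seeing the data, it was at -1.38 (adjusted p = 0.00407). The salivary gland sums of vehicle-treated and 6d mice did not overlap, so these groups could not be compared at the same sum. At 2d, total counts gave -0.89 (adjusted p = 0.0643), with a shift of 0.36.

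Sgcb and Sgcd, the beta and delta chains that form the core of the sarcoglycan complex, were not called by edgeR in any of the 12 comparisons. Sgcb was at 145, 152 and 155 CPM in vehicle-treated mice and at 274, 211, 228 and 133 CPM 2d post-Col (10U). Mice 1 to 3 were above and mouse 4 was below the vehicle range, and the log2 fold change was 0.45 ± 0.25 (edgeR, adjusted p = 0.243). At 6d and 12d Sgcb was at 0.13 ± 0.17 and 0.27 ± 0.16 on the log2 scale, and neither value passed the test. Among the sarcoglycan members, Sgcd had the least RNA. It was at 27.3, 23.9 and 43.6 CPM in vehicle-treated mice and at 31.5, 29.1, 32.4 and 39.5 CPM at 2d, a log2 fold change of 0.02 ± 0.25. At 6d its mice were spread from 16.7 to 38.9 CPM, and at 12d all mice were at 37.7 CPM or more, with a log2 fold change of 0.47 ± 0.24 (edgeR, adjusted p = 0.355). In the 0.2U groups Sgca had log2 fold changes of -0.57 ± 0.23 (1C) and -0.57 ± 0.17 (RPC), and its RPC mice, at 157, 119, 131 and 148 CPM, were below all vehicle-treated mice of the Col experiment. Neither value passed the test (edgeR, adjusted p = 0.375 and 0.285). Before adjustment, edgeR's p for Sgca was 0.00944 in RPC and 0.00994 6d post-Col (10U), where it was called. The adjusted values differ because the adjustment runs over all tested genes of each comparison. The 0.2U and 10U groups were not compared directly. Sgcb was below all vehicle-treated mice in both 0.2U groups too, by 0.26 and 0.38 on the log2 scale, without passing the test. Groups lay apart downward in 6.13% and upward in 4.22% of all genes for 1C, and in 7.21% and 4.79% for RPC.

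Dmd (dystrophin) had the opposite sign. It was at 83.5, 70.8 and 126 CPM in vehicle-treated mice of the Col experiment and at 207, 152, 181 and 163 CPM 2d post-Col (10U). The treated mice were above all vehicle-treated mice, with a log2 fold change of 0.86 ± 0.26 (edgeR, adjusted p = 0.0743; DESeq2, adjusted p = 0.0141). At 6d Dmd was at 135, 118 and 174 CPM, overlapping vehicle, with a log2 fold change of 0.58 ± 0.28 (edgeR, adjusted p = 0.147). At 12d it was at 199, 191, 160 and 157 CPM, again above all vehicle-treated mice, with a log2 fold change of 0.94 ± 0.24 (edgeR, adjusted p = 0.125; DESeq2, adjusted p = 0.00675). Groups lay apart upward in 13.4% of all genes at 2d and 9.16% at 12d. Without vehicle mouse 3, which had the highest Dmd of its group, edgeR's adjusted p was 0.0477 at 2d, 0.0267 at 6d and 0.0234 at 12d, and without treated mouse 4 it was 0.0341 at 2d. Leaving out any 1 other mouse gave no call, with an adjusted p of up to 0.241 at 2d, 0.349 at 6d and 0.319 at 12d. Over all these fits the log2 fold change ranged from 0.65 to 1.13 at 2d, 0.38 to 0.86 at 6d and 0.75 to 1.25 at 12d. In the RPC group, with 153, 116, 127 and 184 CPM, the log2 fold change was 0.64 ± 0.26 (edgeR, adjusted p = 0.36), and in the 1C group 0.20 ± 0.25.

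Dmd has a transcript of 14910 bases, and long transcripts as a class differed between groups. For 110 tested genes with transcripts over 12000 bases, the median log2 fold change was 0.28 at 12d post-Col (10U) and 0.23 in the RPC group (109 genes), against -0.05 and -0.14 for genes under 1000 bases. At 2d the median of genes over 12000 bases was -0.04. With transcript length as an offset in the fit, chosen after seeing the data, Dmd at 12d had a log2 fold change of 0.68 (edgeR, adjusted p = 0.045) and at 2d of 0.85 (adjusted p = 0.0473).

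**Figure D3:**
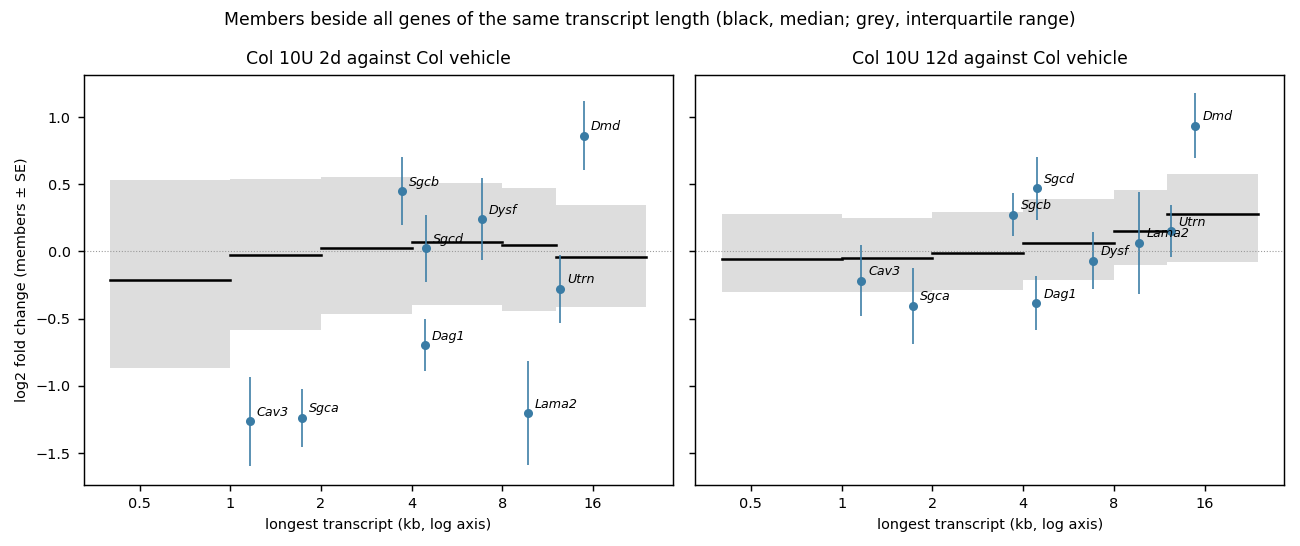
Log2 fold change (± SE) of the members against the length of their longest transcript, on a log axis, 2d and 12d post-Col (10U), over the median (black) and interquartile range (grey) of all tested genes in 6 length classes. Dmd lies above the interquartile range of genes of its length at both times, and Sgca, Cav3, Dag1 and Lama2 lie below it at 2d. At 12d, Sgca and Dag1 still lie below the range of their length class, and Sgcd lies above it.

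Utrn (utrophin), whose transcript of 12382 bases is nearly as long, did not follow Dmd. It was at 92.6, 94.4 and 137 CPM in vehicle-treated mice and at 79.0, 84.6, 75.7 and 127 CPM 2d post-Col (10U). The log2 fold change was -0.28 ± 0.26 with overlapping groups. At 6d, when markers of regenerating fibres were at their highest, Utrn was at 83.8, 97.3 and 90.2 CPM, a log2 fold change of -0.28 ± 0.21. At 12d it was at 107, 128, 111 and 125 CPM. All 12d mice were above all 6d mice, and Utrn was up-regulated from 6d to 12d with a log2 fold change of 0.40 ± 0.12 (edgeR, adjusted p = 0.0423). In this comparison 2 of 9 members were called higher, Utrn and Cav3, beside 13.4% of all tested genes, and 0 lower, beside 13%. The call on Utrn held without mouse 4 at 12d (adjusted p = 0.0287) and was lost without any 1 of the other 6 mice, at 0.0745 to 0.126. It was also lost with total counts alone, at 0.23 (adjusted p = 0.335), with the transcript length offset, at 0.28 (adjusted p = 0.1), and with salivary and bone covariates, at 0.21 (adjusted p = 0.468). Without a low-count filter its adjusted p was 0.0655, and with 1 fit over all libraries it was 0.102. Against vehicle, Utrn at 12d differed by 0.15 ± 0.20, and in the 0.2U groups by 0.35 ± 0.22 (1C) and 0.45 ± 0.20 (RPC), without passing the test.

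Dag1, the dystroglycan precursor that is cut into a matrix-binding and a membrane-spanning chain, was at 508, 443 and 500.2 CPM in vehicle-treated mice and at 297, 292, 310.4 and 329 CPM 2d post-Col (10U). Its mice lay below all vehicle-treated mice at this time. The log2 fold change was -0.70 ± 0.19 (edgeR, adjusted p = 0.0677; DESeq2, adjusted p = 8.09e-05). At 6d Dag1 was at 413, 378 and 473 CPM, above all 2d mice, with a log2 fold change from 2d of 0.48 ± 0.18 (edgeR, adjusted p = 0.133; DESeq2, adjusted p = 0.00445). From 2d to 6d, 0 members were called by edgeR, beside 4.68% higher and 4.05% lower of all genes, while 4 had an unadjusted p under 0.05, as did 26.6% of all genes, and DESeq2 called 1, Dag1, beside 8.82% higher and 9.83% lower of all genes. At 12d Dag1 was at 390, 414, 377 and 274 CPM against vehicle, -0.39 ± 0.20 on the log2 scale (edgeR, adjusted p = 0.368).

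Lama2, the laminin chain that dystroglycan binds, is made by fibroblast-lineage cells as well as myofibres. It was at 83.8, 36.6 and 67.2 CPM in vehicle-treated mice and at 21.3, 18.6, 26.9 and 45.2 CPM 2d post-Col (10U). Mice 1 to 3 were below the vehicle range and mouse 4 was inside it, with a log2 fold change of -1.20 ± 0.39 (edgeR, adjusted p = 0.0847; DESeq2, adjusted p = 0.0218). At 6d its mice were at 43.6, 43.1 and 49.7 CPM, and at 12d at 42.6, 45.6, 64.2 and 103 CPM. The highest of these was mouse 4, the library with the highest fibroblast marker sum; the part of those cells in this value was not tested. Neither time passed the test against vehicle, with log2 fold changes of -0.49 ± 0.30 and 0.06 ± 0.38. At 6d the value depended on vehicle mouse 2, the lowest of its group: without it Lama2 was at -0.79 (edgeR, adjusted p = 0.0282), and without vehicle mouse 1 at -0.23. At 2d Lama2 was called without treated mouse 4 (-1.54, adjusted p = 0.0116), and leaving out any 1 of the other mice gave no call, with an adjusted p of up to 0.271.

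Cav3 (chr6:112409495-112422865 on mm9, plus strand) was nearest to Sgca among the members, with a mean absolute difference of 0.18 between their 7 log2 fold changes against vehicle. It was at 149, 158 and 67.6 CPM in vehicle-treated mice and at 47.7, 40.9, 46.5 and 76.4 CPM 2d post-Col (10U). Mouse 4 alone of the treated overlapped the lowest vehicle-treated mouse, and the log2 fold change was -1.27 ± 0.33 (edgeR, adjusted p = 0.0636; DESeq2, adjusted p = 0.00549). Without that mouse edgeR's adjusted p was 0.00907, and without vehicle mouse 3 it was 0.0486, while leaving out any 1 of the other mice gave no call, with an adjusted p of up to 0.222. At 6d Cav3 was at 85.1, 67.7 and 74.2 CPM, with a log2 fold change against vehicle of -0.73 ± 0.30 (edgeR, adjusted p = 0.104). At 12d it was at 113, 105, 106 and 93.7 CPM, above all 6d mice. Cav3 was up-regulated from 6d to 12d with a log2 fold change of 0.48 ± 0.13 (edgeR, adjusted p = 0.036). The call held without mouse 4 at 12d (adjusted p = 0.00904) and was lost without any 1 of the other 6 mice, at 0.0538 to 0.134, with total counts alone, at 0.29 (adjusted p = 0.0974), and with 1 fit over all libraries, at 0.47 (adjusted p = 0.203).

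Dysf, the repair protein, was at 140, 107 and 81.4 CPM in vehicle-treated mice of the Col experiment. At 2d post-Col (10U) it was at 188, 127, 137 and 81.8 CPM, a log2 fold change of 0.24 ± 0.30 with overlapping groups. At 6d it was at 83.8, 76.1 and 82.6 CPM, with a log2 fold change from vehicle of -0.46 ± 0.21 (edgeR, adjusted p = 0.138) and from 2d of -0.70 ± 0.26 (adjusted p = 0.131). Without mouse 4 at 2d, the change from 2d to 6d was -0.88 and passed the test (adjusted p = 0.00751). Leaving out any 1 of the other mice gave no call on this change, with an adjusted p of up to 0.378. In the fit without mouse 4, Dysf was the only member called lower, while Sgca, Cav3, Lama2 and Dag1 were called higher. Of all tested genes, 28.8% were called in that fit. At 12d Dysf was at 112, 108 and 112 CPM in mice 1 to 3 and at 76.1 CPM in mouse 4.

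**Figure D4:**
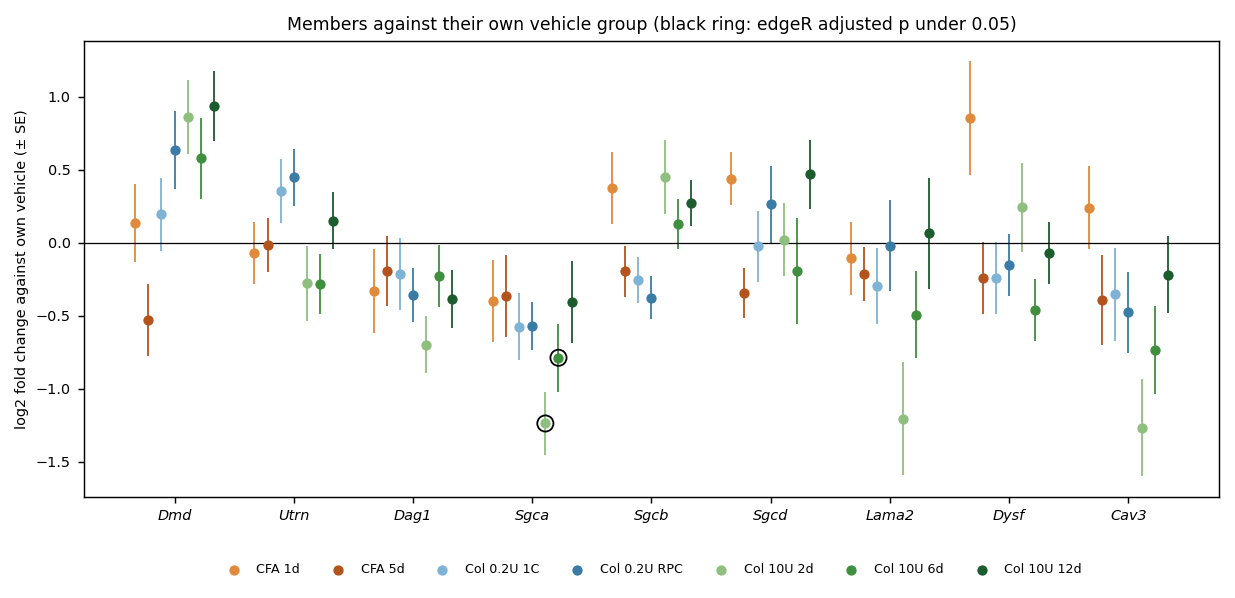
Log2 fold change (± SE) of each member against its own vehicle group in 7 comparisons, with a black ring where edgeR's adjusted p was under 0.05. The 2 rings are on Sgca, 2d and 6d post-Col (10U), and the values of Dmd after 10U Col are on the other side of 0.

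Post-CFA, no member passed the test. At 1d, Sgcd was at 46.8, 52.8 and 46.2 CPM, above the vehicle-treated mice at 32.6, 34.9 and 39.8 CPM, with a log2 fold change of 0.44 ± 0.18 (edgeR, adjusted p = 0.924). Groups lay apart upward in 3.05% and downward in 3.13% of all genes. Dysf had the largest value at 1d, 0.85 ± 0.39, which rested on mouse 1 at 383 CPM beside 147 and 182 CPM in the others. At 5d all 9 members had log2 fold changes below 0, with a median of -0.24 beside -0.02 over all genes, and 0 passed the test. Utrn was at -0.01 ± 0.19, close to no change, and ranged from -0.12 to 0.14 with 1 mouse left out. Under other settings Utrn reached 0.06 and Lama2 0.07. Sgcd was the member whose 5d mice all lay below vehicle, as did 6.89% of all genes, and 0 members passed the thresholds of the study, which 0.92% of all genes passed upward. The largest of these was Dmd, at 73.2, 68.4 and 71.2 CPM against 116, 70.0 and 129 CPM in vehicle. Its log2 fold change was -0.53 ± 0.25 (edgeR, adjusted p = 0.403). The salivary gland sum was 85240 CPM or more in these 3 mice. Its marker Smr3a was at 78196 CPM or more in them and 7042 CPM or less in vehicle. Salivary gland RNA and CFA treatment therefore cannot be told apart in these values. A fit with salivary and bone covariates, added after seeing the data, called no member here.

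Whether 10U Col and CFA differed in their effects was tested as the difference between their log2 fold changes. At the early times, 0 members differed with edgeR (0.0541% of all genes higher and 0.0406% lower) and 0 with DESeq2, while 3 had an unadjusted p under 0.05, as did 6.83% of all genes: Cav3 at -1.53 ± 0.48, Lama2 at -1.13 ± 0.50 and Sgca at -0.86 ± 0.36, all lower post-Col. For 6d post-Col against 5d post-CFA, 0 members differed with edgeR (4.34% of all genes higher and 6.96% lower). Dmd, the member with an unadjusted p under 0.05, which 28.9% of all genes reached, differed by 1.10 ± 0.39 (edgeR, adjusted p = 0.0891; DESeq2, adjusted p = 0.0317), and DESeq2 called 8.39% of all genes higher and 10.2% lower.

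Around the members, 105 further genes of the pathway were counted in 5 lists, and 100 of these had enough counts to be tested after 10U Col. At 2d, 2 of 100 passed the test, both lower: Actn3, the fast-fibre alpha-actinin, at -1.91 ± 0.32, and Capn1, a calcium-dependent protease, at -1.06 ± 0.20. DESeq2 called 11 higher and 20 lower at this time. The shares of all genes for both tests at 2d and 12d are given above beside the members' calls. At 6d, 17 of 100 were called higher and 17 lower, beside 14% and 13.3% of all genes. At 12d 1 was called, Cav2, a caveolin of non-muscle cells, at 1.05 ± 0.14 (edgeR, adjusted p = 0.0142), with 96.8 to 122 CPM in treated and 53.7 to 59.1 CPM in vehicle-treated mice.

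Of 19 laminin, integrin and basement membrane genes, 10 were called higher and 2 lower, with a median log2 fold change at 6d of 0.78 beside 0.01 over all genes. Col6a3, a chain of collagen VI, was up-regulated by 2.18 ± 0.45 on the log2 scale, from a mean of 137 ± 64.9 CPM (SD, n = 3) in vehicle to 638 ± 203 CPM (n = 3). Col18a1, a basement membrane collagen, was up-regulated by 2.06 ± 0.24 and Col6a2 by 1.87 ± 0.41. Itga7 and Itgb1, the laminin-binding integrin of myofibres that works in parallel with dystroglycan, were up-regulated by 1.38 ± 0.29 and 0.94 ± 0.21. The fibroblast marker sum was 11120 to 18560 CPM at 6d and 1546 to 8781 CPM in vehicle, and its part in these values was not tested.

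Of 34 membrane repair and caveola genes at 6d, 7 were called higher and 3 lower, with a median of 0.05. Myof, a ferlin related to dysferlin, was up-regulated by 1.75 ± 0.27, from a mean of 25.3 ± 5.23 to 87.3 ± 25.1 CPM. The annexins Anxa2, Anxa4 and Anxa5, calcium-dependent membrane-binding proteins, and their S100 partners S100a10 and S100a11 were higher by between 0.95 and 1.48 on the log2 scale, and Capn2, a calpain, by 0.64 ± 0.18. Ano5, a muscle membrane protein of the same repair process, and Smpd1 and Capn1 were lower. Annexins and S100 proteins are also abundant in macrophages and fibroblasts. The sum of 8 macrophage markers was 1158 to 2305 CPM at 6d and 112 to 440.4 CPM in vehicle, and its part here was not tested.

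In the 3 lists of the complex and its intracellular links, every call at 6d was lower. Of 10 other complex subunits, 3 were called lower and 0 higher, with a median of -0.56, among them Nos1, the nitric oxide synthase held at the sarcolemma (-1.54 ± 0.35), and Drp2 (-0.94 ± 0.26). Of 21 costamere and cytoskeletal genes, 5 were called lower and 0 higher, with a median of -0.64, among them Synm (-1.29 ± 0.34) and Spnb1 (-1.17 ± 0.24), an intermediate filament protein and a spectrin. Of 16 dystroglycan glycosylation genes, 4 were called lower and 0 higher, with a median of -0.26. One of these, Gyltl1b at -4.63, ranged from 0.174 to 13.2 CPM among vehicle-treated mice and overlapped between the groups. Gyltl1b was at 3.48 ± 0.90 5d post-CFA (edgeR, adjusted p = 0.126), where the salivary gland sum was raised. Smr3a, a salivary gland marker, was at 21.7 to 95367 CPM in vehicle and at 1.99 CPM or less at 6d. The part of salivary gland RNA in the calls of these 3 lists was not tested. Myofibre markers had a median of -1.45 at 6d, 3 of 10 called lower, and a median of -1.86 at 2d with 0 of 10 called. The median of the 9 members was -0.28 at both times.

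**Figure D5:**
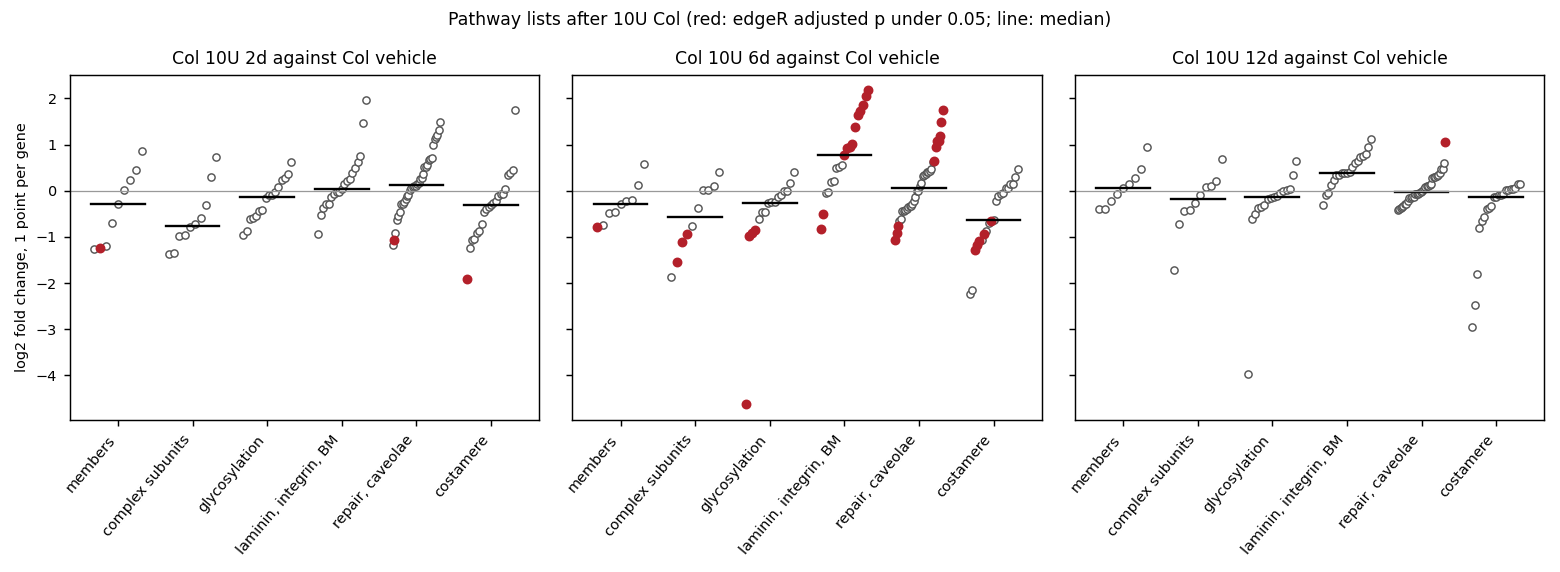
Log2 fold change of each tested gene of the members and of 5 pathway lists 2d, 6d and 12d post-Col (10U) against vehicle, with genes at an adjusted p under 0.05 in red and the median as a line. At 6d the laminin, integrin and basement membrane (BM) list has 10 red points above 0, and the complex subunit, glycosylation and costamere lists have red points below 0 only.

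Post-CFA, edgeR called 3 of 100 pathway genes at 5d, all higher, while DESeq2 called 9 higher and 3 lower. Those called by edgeR were Krt19 at 2.09 ± 0.36, Dtnb at 1.72 ± 0.27 and Agrn at 0.98 ± 0.15. Krt19 is a keratin of simple epithelia as well as of costameres, and the salivary gland sum was raised in these mice. At 1d post-CFA and in both 0.2U groups, 0 pathway genes were called by edgeR. An unadjusted p under 0.05 was reached by 6 at 1d, 23 in 1C and 21 in RPC, and DESeq2 called 0, 6 and 7. The shares of all genes for these comparisons, and for 5d post-CFA, are given above beside the members' calls.

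The genes whose 7 log2 fold changes were nearest to those of a member were found among 9078 genes, as a description over comparisons that share vehicle mice. For Sgca the nearest was Eef1a2, the translation factor isoform of muscle and neurons, with a mean absolute difference of 0.06, followed by Fut10. For Dmd they were Zbtb41 (0.08) and Taok1 (0.10), for Cav3 Asb1 (0.11) and Cyp2d22 (0.13), and for Lama2 Bche and C1qtnf1 (0.10 each). Utrn was nearest to Spna2, the spectrin alpha chain (0.07), and Dag1 to Rai1 (0.06). Sgcb was nearest to 2310022B05Rik (0.07), Sgcd to Snx16 (0.10) and Dysf to Ddi2 (0.09). Among the members themselves, Dmd and Sgca were farthest apart, at 1.07.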

How the data were processed

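Bulk RNA-seq of masseter muscle from 31 mice was analysed from 1 table per library of raw counts, deposited by the authors without normalization, each value being reads counted on a gene symbol. Libraries were stranded and poly(A)-selected, with single-end reads of 50 bases. The submitters' processing notes name bcl2fastq, TopHat2, HTSeq and mm9; versions, annotation and strand setting are not given in the sources used here. Ambiguous and unassigned reads were left out of library sizes. Members and pathway lists were chosen with earlier results of these data known.

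In R 4.3.3, edgeR 4.0.16 tested genes that reached 10 counts in 3 or more of the compared libraries (TMM scaling, quasi-likelihood test, group as the only factor, Benjamini-Hochberg adjustment, called under 0.05). A count of 10 has a counting error of 31.6%. SEs are the absolute log2 fold change over the square root of F. The study's thresholds (fold over 2, RPKM over 1) were counted beside it. RPKM and length used GENCODE vM1, for 21627 of 22609 genes. The label groups are separate mice, and 465 library pairs included 0 with identical values. Alternatives were DESeq2 1.42.0, its size factors, total counts, no filter, 1 fit over all libraries, both vehicle groups pooled, a replicate block and each mouse left out. Salivary and bone covariates and a transcript length offset were added after seeing the data. Named pathway genes were, by a fixed rule, the 4 higher and 4 lower with the largest change among called genes whose groups did not overlap in a comparison with vehicle; Itga7, Itgb1, the annexins, S100a10, S100a11, Capn2, Ano5, Smpd1, Capn1 at 6d, Drp2 and Gyltl1b were named after their values were seen. Not every gene that the rule selects is reported here. The scripts were tested on simulated data.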

Additional observations from a re-analysis of the deposited data

Results flagged for a closer look

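In 36 groups of 4 mice (9 members in 4 groups), 3 had 1 mouse whose gap to the nearest other mouse was large relative to the range of the group, and chance gives about 1 in 20 such groups. The 9 members of a group were measured in the same 4 mice, so the 36 are not independent and this rate is no test. Sgca 2d post-Col (10U) was at 117.7 CPM in mouse 4, the highest of its group, with a gap of 0.871 of the range. Sgca 12d post-Col (10U) was at 82.54 CPM in mouse 4, the lowest, with a gap of 0.954 of the range, and Dysf in the same mouse was at 76.07 CPM, with a gap of 0.875. Mouse 4 at 2d also had the highest myofibre marker sum of its group, at 73980 CPM, and mouse 4 at 12d the lowest, at 57490 CPM; the part of this in the values was not tested.

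Reads that the counting called ambiguous, which enter no comparison, made up at least 0.5589% of each library of 10U mice, above the highest share in the other libraries, 0.2595%. A difference in library making or counting cannot be told apart from the 10U treatment.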

How the results depend on the processing

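Of the members' values, 793 of 927 under other settings and 755 of 819 with 1 mouse left out kept their side of the threshold and moved by less than their SE. No called value changed sign under any setting run; of values called in neither fit, 59 changed sign under other settings and 48 with 1 mouse left out, none with a log2 fold change above 0.536 in size. Counts of called members depended on the setting. At 2d post-Col (10U), with 1 called, DESeq2, 1 fit over all libraries, the replicate block and pooled vehicles each called 5 (Dmd, Dag1, Sgca, Lama2 and Cav3), total counts 0, the transcript length offset 2, and salivary and bone covariates 6. The share of all genes called, 2.22% in the reported fit, was 23.2% with DESeq2, 33.7% with 1 fit, 31.3% with the block, 34.4% with pooled vehicles and 33.6% with the covariates. At 6d, with 1 called, 1 fit over all libraries and pooled vehicles each called 2, salivary and bone covariates 4 (Dmd 0.88, Sgca -1.38, Dysf -0.996 and Cav3 -1.26), and the replicate block 0, where Sgca was at -0.80 (adjusted p = 0.109); total counts called Dmd in place of Sgca. For the covariates, salivary gland sums did not overlap between vehicle-treated and 6d mice. The share of all genes called was 27.3% in the reported fit and 10.3% to 40% over these settings. At 12d, with 0 called, DESeq2, 1 fit over all libraries, the length offset and the covariates each called 1, Dmd. From 2d to 6d, with 0 called, DESeq2 and the covariates each called 1 and the replicate block 3. From 6d to 12d, with 2 called, total counts called 0, no filter, 1 fit over all libraries and the length offset 1 each, and the replicate block 5, beside 49.2% of all genes and 26.4% in the reported fit. The 1 called in the 1 fit was Sgcd, with Utrn and Cav3 lost, and the covariates called Sgca and Cav3 but not Utrn. For 6d post-Col minus 5d post-CFA, with 0 called, total counts called 2, and DESeq2, 1 fit over all libraries, the replicate block and the length offset 1 each. Where only 1 of the compared groups had a mouse 4, the block's term for replicate 4 took up that mouse. The block is then close to leaving mouse 4 out: Sgca at 2d was at -1.38 with the block and -1.39 without mouse 4. The cause of the shifts under the other settings was not tested.

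With 1 mouse left out, 0 to 6 members were called at 2d, 0 to 4 at 6d, 0 to 2 at 12d, 0 to 5 from 2d to 6d, 0 to 4 from 6d to 12d and 0 to 1 for 6d post-Col minus 5d post-CFA; the other comparisons called 0 throughout. In the same fits, 0.0843% to 36.3% of all genes were called at 2d, 5.83% to 41.5% at 6d, 0.291% to 4.32% at 12d, 0.881% to 28.8% from 2d to 6d, 1.66% to 54.2% from 6d to 12d and 3.84% to 18% for the last. The Sgca log2 fold change lay between -1.40 and -1.13 at 2d and between -0.99 and -0.67 at 6d. Leaving out mouse 4 at 2d gave the 6, beside 36.3% of all genes, and the 5, beside 28.8%; vehicle mouse 3 of the Col experiment the 4 at 6d and the 2 at 12d, and mouse 4 at 12d the 4 from 6d to 12d, beside 54.2%. Replicate numbers were not used as pairs in the reported fits. The mean correlation of same-numbered mice was between -0.105 and 0.287, with single pairs up to 0.619. No comparison had every pair above 0.1, but 3 pairs in each are too few to exclude pairing. In simulated counts for 12d, 2-fold changes were recovered in 9 of 100 genes, and 4-fold changes in 77 of 100. Of 94 calls there, 8 were wrong.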
